A study of Mus musculus with 6 samples.

Results

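Pou5f1, Sox2 and Klf4, the 3 reprogramming factors delivered by retrovirus, were followed in 6 wells of mouse embryonic fibroblasts (MEFs) at 10 days postinfection (dpi). They were chosen by name, as the factors the vectors carry, and are 3 of the 54331 genes listed by Ensembl identifier, of which 54097 carried a symbol in the annotation used here. The question was how much of each factor the wells contained, in what ratio, and whether this differed between the AKT-activated and nonactivated groups. Both groups had the same origin. The MEFs came from male E13.5 embryos of mixed C57BL/6, DBA/2 and ICR background and carried an Oct4-EGFP transgene, in which the promoter and enhancer of Oct4 drive EGFP (OE-MEFs). All cells were transduced with pMXs-Oct4, pMXs-Sox2, pMXs-Klf4 and pMYs-AKT-Mer (OSKA), the last encoding myristoylated AKT fused to a modified estrogen receptor (AKT-MER). The transduced cells were divided among the wells at 3 dpi, and from then on 3 wells received 1 µM 4-hydroxytamoxifen (OSKA + 4OHT group), which activates AKT-MER, and 3 wells received the ethanol vehicle (OSKA − 4OHT group). All 4 vectors had thus been given to the cells of every well, and no library of cells without vectors was analysed here. As far as the methods tell, the wells were plated from the same transduced cells, so the p-values below measure the spread between wells and not between independent infections.

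Pou5f1 encodes OCT4, a POU-domain transcription factor that binds the octamer motif and maintains pluripotency, and Sox2 encodes an HMG-box factor that binds next to OCT4 on many of its targets. Klf4 encodes a zinc-finger factor that, in reprogramming, acts on the same enhancers and on epithelial genes, and unlike the other 2 it is also expressed by fibroblasts. pMXs and pMYs vectors are transcribed from a viral long terminal repeat, which pluripotent cells are known to silence, while the endogenous genes become active. A vector carries a cDNA without the promoter of the gene. In a gene-level table, reads of a vector cDNA and of the endogenous gene fall on the same row, so each level below is the sum of both, and the 2 sources cannot be told apart.

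The endogenous copies are read from the promoters printed here, which the vectors lack, and they are shown to mark what separates the 2 sources. Each is the 300-base RefSeq window (GRCm38.p6) from 250 bases before to 50 bases after an annotated start, written 5′ to 3′ on the gene's strand. The windows are chr17:35505782-35506081 on the + strand (Pou5f1, 1 of its 2 windows), chr3:34649745-34650044 on the + strand (Sox2) and chr4:55532426-55532725 on the - strand (Klf4). Capitals mark matches, on either strand, to ATGCAAA (an octamer-type motif), ACAAAG (SOX-type) or CCACNCCC (KLF-type).
Pou5f1: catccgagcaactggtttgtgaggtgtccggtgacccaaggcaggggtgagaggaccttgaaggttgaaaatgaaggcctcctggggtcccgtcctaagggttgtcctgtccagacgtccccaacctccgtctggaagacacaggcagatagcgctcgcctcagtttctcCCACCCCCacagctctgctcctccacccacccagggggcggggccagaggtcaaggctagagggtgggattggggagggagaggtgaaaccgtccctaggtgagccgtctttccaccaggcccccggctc
Sox2: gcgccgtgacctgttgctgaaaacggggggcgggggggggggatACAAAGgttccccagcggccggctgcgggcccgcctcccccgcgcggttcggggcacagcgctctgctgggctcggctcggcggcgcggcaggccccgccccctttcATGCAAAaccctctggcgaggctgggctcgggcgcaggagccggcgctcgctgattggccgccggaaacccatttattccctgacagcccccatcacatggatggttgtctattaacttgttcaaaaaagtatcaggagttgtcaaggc
Klf4: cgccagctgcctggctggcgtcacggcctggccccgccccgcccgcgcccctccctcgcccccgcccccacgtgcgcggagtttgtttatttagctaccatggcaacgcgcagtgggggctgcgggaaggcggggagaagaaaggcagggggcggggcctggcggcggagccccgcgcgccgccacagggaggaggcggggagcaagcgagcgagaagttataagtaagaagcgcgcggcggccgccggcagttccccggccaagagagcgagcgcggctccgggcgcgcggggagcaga
The Sox2 window held 1 octamer-type and 1 SOX-type match, the Pou5f1 window 1 KLF-type match, and the Klf4 window none of the 3. Of the 32851 RefSeq promoter windows, 4.63% held the octamer-type letters, 18.7% the SOX-type and 17.6% the KLF-type letters. The annotated start of Sox2 in RefSeq lies upstream of the gene start used below. The GC content was 62.7% for Pou5f1, 66.3% for Sox2 and 74.3% for Klf4.

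Pou5f1 (ENSMUSG00000024406, GRCm38 chromosome 17, 35506018 to 35510772, + strand, 5 exons) was the most abundant of the 3 in every well. Values are in TPM (transcripts per 1000000), a level per transcript length that the authors obtained with Salmon, and they have the same total in each well. Values are given below in the order of replicates 1, 2 and 3. Pou5f1 had 998, 1176 and 1136 TPM without 4OHT and 1054, 1167 and 857 TPM with 4OHT. The groups overlapped, and the lowest value was that of OSKA + 4OHT replicate 3. The means were 1103 ± 93.5 TPM and 1026 ± 157 TPM (SD, n = 3 each). The log2 fold change was -0.11 (SE 0.140, limma-trend, Benjamini-Hochberg adjusted p = 0.683 over the 15382 genes whose mean reached 1 TPM). Its 95% interval ran from -0.45 to 0.22, that is from 0.732-fold to 1.17-fold. Without OSKA + 4OHT replicate 3 the log2 fold change was 0.011. These are whole wells, so fewer cells with the factor and less of its RNA per cell cannot be told apart. By abundance Pou5f1 ranked between 75 and 106 among all genes.

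Klf4 (ENSMUSG00000003032, chromosome 4, 55527143 to 55532466, - strand, 5 exons) came next. It had 531, 573 and 448 TPM without 4OHT and 517, 569 and 402 TPM with 4OHT, and replicate 3 was the lowest well within each group. The means were 517 ± 63.7 TPM and 496 ± 85.3 TPM (SD, n = 3 each), and the groups overlapped almost completely. The log2 fold change was -0.068 (SE 0.167, limma-trend, Benjamini-Hochberg adjusted p = 0.850), with a 95% interval from -0.47 to 0.33, or 0.722-fold to 1.26-fold. The sign of this small difference changed to 0.076 without OSKA + 4OHT replicate 3 and to 0.0096 without OSKA − 4OHT replicate 2. Klf4 ranked between 224 and 293.

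Sox2 (ENSMUSG00000074637, chromosome 3, 34650405 to 34652461, + strand, 1 exon) was the lowest of the 3 in every well. It had 265, 250.3 and 257 TPM without 4OHT and 302, 326 and 255 TPM with 4OHT. Replicates 1 and 2 of the OSKA + 4OHT group lay above all OSKA − 4OHT wells, and replicate 3 lay among them. The means were 258 ± 7.52 TPM and 294 ± 36.5 TPM (SD, n = 3 each). The log2 fold change was 0.19 (SE 0.126, limma-trend, Benjamini-Hochberg adjusted p = 0.463), with a 95% interval from -0.12 to 0.49, or 0.922-fold to 1.40-fold. Without OSKA + 4OHT replicate 3 the log2 fold change was 0.29, with a 95% interval from 0.070 to 0.50 and a limma-trend Benjamini-Hochberg adjusted p = 0.155 (0.0201 before adjustment). Without OSKA + 4OHT replicate 2 it was 0.11. Its rank was between 388 and 530.

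None of the 3 factors was called different (adjusted p below 0.05 with a log2 fold change beyond 1 in size), whereas 4.23% of the 15382 tested genes were called. With all 6 wells none of the 3 had an unadjusted p under 0.05 either (0.449, 0.188 and 0.698 for Pou5f1, Sox2 and Klf4, limma-trend). The exact permutation test over the 6 wells, 2-sided, gave p = 0.6, 0.3 and 0.6, and cannot give less than 0.1 with 3 wells against 3. The missed threshold does not show equal levels, but the intervals above do not reach a 2-fold difference in either direction. Across all tested genes the median log2 fold change was 0.14, so relative to it Pou5f1 lay at -0.26, Klf4 at -0.21 and Sox2 at 0.041. After scaling by a trimmed mean of log ratios, which lowered the median of all genes to 0.043, these relative values were -0.27, -0.22 and 0.032, and after quantile normalization they were -0.040, -0.020 and 0.24. The groups overlapped for all 3 factors, while they did not overlap for 28.2% of all tested genes (18.1% higher and 10.0% lower with 4OHT).

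**Figure D1:**
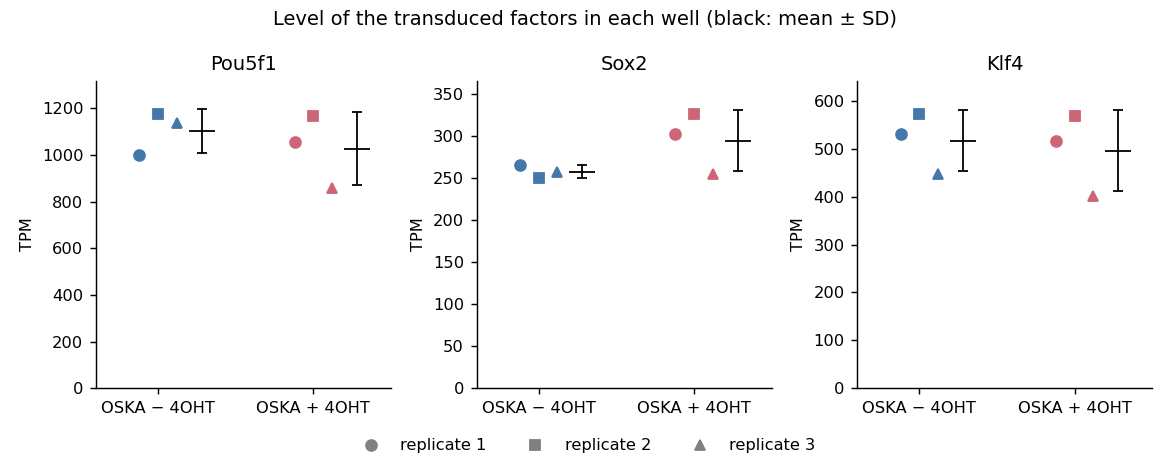
TPM of Pou5f1, Sox2 and Klf4 in each of the 6 wells (vertical axes in TPM, starting at 0 and with a different range per gene; symbols stand for the replicate number, black bars for mean ± SD, n = 3). Replicate 3 of the OSKA + 4OHT group is the lowest well for Pou5f1 and Klf4, and the groups overlap for all 3 genes.

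The spread between wells differed from gene to gene. Within the OSKA − 4OHT group the coefficient of variation was 8.47% for Pou5f1, 12.3% for Klf4 and 2.92% for Sox2, against a median of 11.1% over the 613 genes with a mean of 200 to 1500 TPM. Within the OSKA + 4OHT group it was 15.3%, 17.2% and 12.4%, against a median of 12.1%. The larger values in this group came with replicate 3. Relative to the mean of the 6 wells on the log2 scale, that well lay at -0.30 for Pou5f1, -0.32 for Klf4 and -0.11 for Sox2. Mitochondrial genes took 20.8% of all TPM there, the highest share of any well, against 13.9% to 19.3% elsewhere. Much of this was 1 gene, mt-Atp8, with 9.20% of all TPM in that well and 6.45% to 10.2% in the others. When TPM were rescaled over nuclear protein-coding genes only, the 3 factors together had 2663, 2908 and 2683 TPM without 4OHT and 2623, 2888 and 2307 TPM with 4OHT, and the same well was still the lowest.

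AKT-MER was the fourth transduced gene, and it was followed through Akt1, the kinase, and Esr1, the estrogen receptor whose ligand-binding part makes up MER. The sources used here do not give the species and exact fragments of these cDNAs, so the levels are compared only between wells. Esr1 (chromosome 10, 4611593 to 5005614) had 2904, 3374 and 3247 TPM without 4OHT and 2734, 2956 and 2175 TPM with 4OHT, with overlapping groups. Its log2 fold change was -0.29 (SE 0.134, limma-trend, Benjamini-Hochberg adjusted p = 0.287). Akt1 (chromosome 12, 112653821 to 112674884) had 749, 751 and 653 TPM without 4OHT and 621, 642 and 448 TPM with 4OHT. All 3 OSKA + 4OHT wells were below all OSKA − 4OHT wells, as for 10.0% of all tested genes. Its log2 fold change was -0.35 (SE 0.162, limma-trend, Benjamini-Hochberg adjusted p = 0.286), with a 95% interval from -0.74 to 0.045. Over 17 settings, which include leaving out each well, the log2 fold change ranged from -0.46 to -0.18 for Akt1 and from -0.40 to -0.16 for Esr1. OSKA + 4OHT replicate 3 was the lowest well for Akt1 and Esr1 too, at -0.50 and -0.40 from the mean of the 6 wells, and OSKA − 4OHT replicate 2 was the highest for Pou5f1, Klf4, Akt1 and Esr1.

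**Figure D2:**
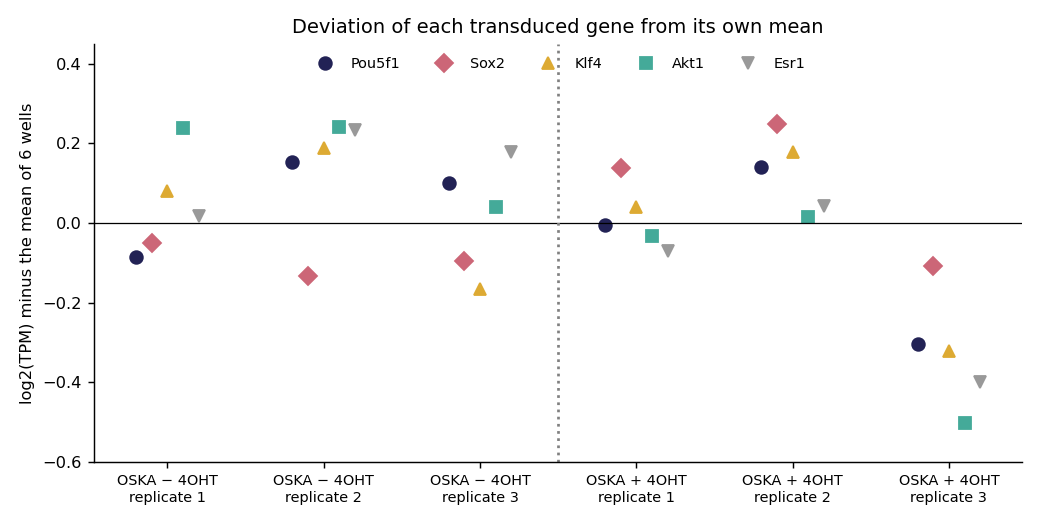
Log2(TPM) of the 5 genes carried by the vectors in each well minus the mean of the same gene over the 6 wells (vertical axis, log2 units); the dotted line separates the groups. Replicate 3 of the OSKA + 4OHT group lies lowest for Pou5f1, Klf4, Akt1 and Esr1, while Sox2 is lowest in OSKA − 4OHT replicate 2.

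The summed dose of the 3 factors was 1795, 1999 and 1841 TPM without 4OHT and 1873, 2063 and 1514 TPM with 4OHT. The group means were 1878 ± 107 TPM and 1817 ± 279 TPM (SD, n = 3 each), with a difference of -61.5 TPM, smaller than either SD. After trimmed mean scaling the difference was -214 TPM, beyond the SD of 144 and 173 TPM on that scale. With 1 well left out it was between -185 TPM (without OSKA + 4OHT replicate 2) and 89.7 TPM (without OSKA + 4OHT replicate 3), and without OSKA − 4OHT replicate 2 it was -0.94 TPM. The factors made up 0.151% to 0.206% of all TPM. Pou5f1 held 58.7% of the sum in the OSKA − 4OHT group and 56.5% in the OSKA + 4OHT group, and Klf4 held 27.5% and 27.3%. Sox2 held 12.5% to 14.8% of it in the OSKA − 4OHT wells and 15.8% to 16.8% in the OSKA + 4OHT wells, so that its share was higher in all 3 AKT-activated wells.

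Ratios within a well do not depend on how TPM were scaled between wells. The Pou5f1 to Sox2 ratio was 3.76, 4.70 and 4.42 without 4OHT and 3.49, 3.58 and 3.37 with 4OHT. Every AKT-activated well lay below every nonactivated well, and the means were 4.29 ± 0.481 and 3.48 ± 0.106 (SD, n = 3 each). The mean difference in log2 ratio was -0.30. The exact 2-sided permutation test gave p = 0.1, the smallest value possible with 3 against 3 wells, and 0.3 after Benjamini-Hochberg adjustment over the 3 ratios between the factors. Among all other tested genes, the ratio to Pou5f1 did not overlap between the groups for 29.4%.

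The Sox2 to Klf4 ratio was 0.499, 0.437 and 0.574 without 4OHT and 0.585, 0.573 and 0.633 with 4OHT. The groups overlapped by a small margin, with a log2 difference of 0.25 (exact 2-sided permutation p = 0.2, adjusted 0.3). Without OSKA − 4OHT replicate 2 the difference was 0.16. Without OSKA − 4OHT replicate 3 it was 0.35 (exact 2-sided permutation p = 0.1), and the remaining wells of the groups did not overlap. The Pou5f1 to Klf4 ratio was 1.88, 2.05 and 2.54 without 4OHT and 2.04, 2.05 and 2.13 with 4OHT. Here the AKT-activated wells lay inside the range of the nonactivated ones, and the log2 difference was -0.045 (exact 2-sided permutation p = 0.8, adjusted 0.8). The 3 AKT-activated wells had nearly the same Pou5f1 to Klf4 ratio, with an SD of 0.0496 against 0.341 in the nonactivated wells.

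**Figure D3:**
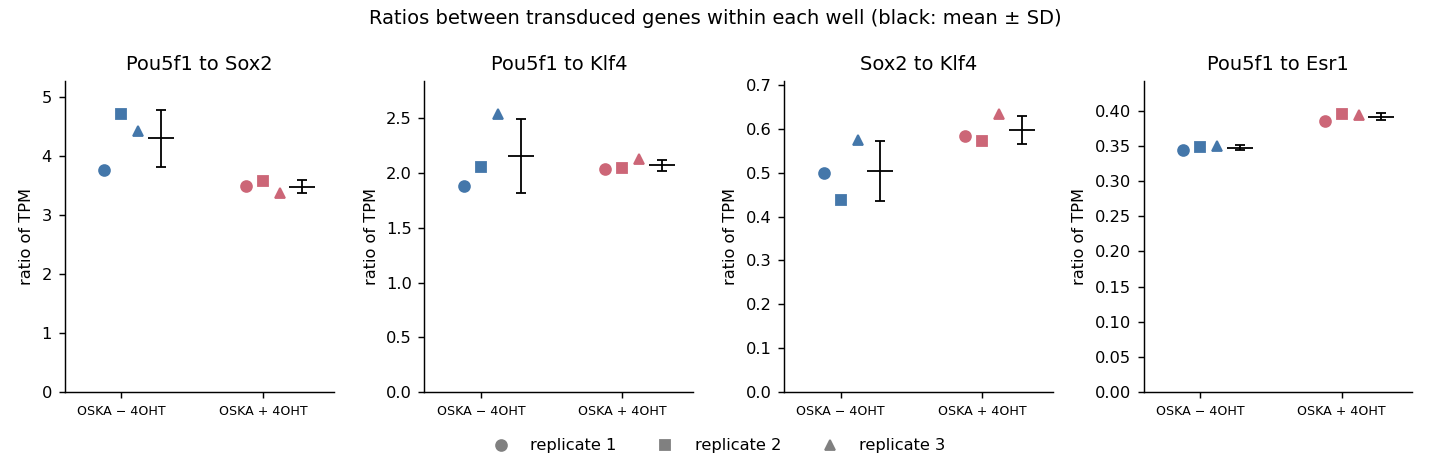
Ratios of TPM between transduced genes in each well (vertical axes are ratios without unit, starting at 0; symbols stand for the replicate number, black bars for mean ± SD, n = 3). The groups separate for Pou5f1 to Sox2 and Pou5f1 to Esr1 and overlap for the other 2 ratios.

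Set against Esr1 as the mark of the fourth vector, a comparison added after the values were seen, the ratio of each of the 3 factors to Esr1 was higher in all AKT-activated wells than in any nonactivated well. The Pou5f1 to Esr1 ratio was 0.344, 0.349 and 0.350 without 4OHT and 0.386, 0.395 and 0.394 with 4OHT. Its spread within groups was small (SD 0.00321 and 0.00518, n = 3 each) beside the difference of the means, 0.347 and 0.392. The ratio of Sox2 to Esr1 ranged from 0.0742 to 0.0914 in the OSKA − 4OHT wells and from 0.110 to 0.117 in the OSKA + 4OHT wells. That of Klf4 to Esr1 ranged from 0.138 to 0.183 and from 0.185 to 0.193, again without overlap. The log2 differences were 0.17 for Pou5f1, 0.47 for Sox2 and 0.22 for Klf4, each with an exact 2-sided permutation p = 0.1 and 0.133 after Benjamini-Hochberg adjustment over 4 ratios. The fourth, Akt1 to Esr1, overlapped (log2 difference -0.061, exact permutation p = 0.8). For 36.8% of all tested genes the ratio to Esr1 did not overlap between the groups, and for 32.0% it was higher in all 3 AKT-activated wells. A separation of this kind was therefore common.

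Ratios between genes in TPM also depend on the length by which reads were divided. The longest annotated transcript has 1362 bases for Pou5f1, 2057 for Sox2 and 3029 for Klf4, of which 77.8%, 46.7% and 47.9% are coding. Suppose all reads came from a cDNA of the coding sequence only and had been divided by the length of the longest transcript. In the OSKA − 4OHT and OSKA + 4OHT groups, the levels of Pou5f1 would then be 1419 and 1320 TPM. Those of Sox2 would be 552 and 631 TPM, and those of Klf4 1079 and 1035 TPM. The mean Pou5f1 to Sox2 ratio would then be 2.58 and 2.09, the Pou5f1 to Klf4 ratio 1.33 and 1.28, and the Sox2 to Klf4 ratio 0.517 and 0.613. The order Pou5f1, Klf4, Sox2 held on both scales, and the differences between the groups in log2 ratio are the same on both. The lengths that Salmon used are not given in the sources used here, so the coding scale is approximate.

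Reads can also be shared with other genes. Of the 1313 windows of 50 bases, the read length, in the Pou5f1 transcript, 13 (0.990%) occur in Gm5712 on the same strand, and 8 of 2980 (0.268%) in the Klf4 transcript occur in Gm48640. None of the 2008 windows of Sox2 occurs in another annotated transcript. On the opposite strand, 15.0% of the Pou5f1 windows lie in the antisense gene Gm19553, which was listed at no more than 10.7 TPM in any well. The libraries were stranded, but the strand setting of the quantification is not given in the sources used here.

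Each factor was then placed in its gene family. Pou5f1 made up 95.3% to 96.5% of the summed TPM of the 15 POU genes in the OSKA − 4OHT wells and 94.3% to 97.2% in the OSKA + 4OHT wells. Of the 4 POU genes tested none was called, against 4.23% of all tested genes, and 1, Pou3f2, had an unadjusted p under 0.05 (limma-trend), against 21.3% of all tested genes. Limma without the trend likewise called 0, with 1 under 0.05. The median log2 fold change was -0.092 against 0.14 over all genes. The next most abundant over the 6 wells was Pou6f1, a POU gene expressed in brain, at 25.9, 46.7 and 30.0 TPM without 4OHT and 26.6, 20.7 and 39.2 TPM with 4OHT. Pou2f1, which encodes the widely expressed OCT1, followed at 5.78 ± 0.510 and 5.49 ± 0.786 TPM (SD, n = 3 each). Pou3f2, a neural POU factor named after its values were seen, had 3.88, 3.78 and 3.72 TPM without 4OHT and 6.22, 6.46 and 7.35 TPM with 4OHT (limma-trend, Benjamini-Hochberg adjusted p = 0.127), and its mean was thus above that of Pou2f1 in the OSKA + 4OHT group.

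Sox2 held a smaller share of its family in the AKT-activated wells. It made up 72.1%, 72.6% and 73.3% of the summed TPM of the 20 SOX genes without 4OHT and 67.3%, 65.5% and 66.6% with 4OHT. The groups did not overlap, and the difference was larger than the SD of 0.577 and 0.924 percentage points. The summed level of the other SOX genes was 96.9 ± 4.91 TPM without 4OHT and 149 ± 22.2 TPM with 4OHT (SD, n = 3 each), while the means of Sox2 itself were 258 and 294 TPM. Of 10 SOX genes tested, 3 were called higher and 0 lower, while 2.87% of all tested genes were called higher and 1.37% lower. The 9 with a mean of 1 TPM or more without 4OHT, among them the 3 called, had a median log2 fold change of 0.30, against 0.089 over all genes with such a mean. Sox13, a SOXD factor, rose from 38.0, 31.1 and 32.1 TPM to 77.9, 95.6 and 66.1 TPM (log2 fold change 1.22, SE 0.186, limma-trend, Benjamini-Hochberg adjusted p = 0.0196). It was the SOX gene with the most RNA after Sox2. Sox9, a SOXE factor of cartilage and epithelial progenitors, rose from 2.18 ± 0.589 to 9.69 ± 0.591 TPM (SD, n = 3 per group, log2 change 1.95, limma-trend, Benjamini-Hochberg adjusted p = 0.0159). Sox21, a SOXB2 factor, rose from 2.38 ± 0.350 to 8.56 ± 2.28 TPM (SD, n = 3 per group, log2 change 1.63, limma-trend, Benjamini-Hochberg adjusted p = 0.0338). With 1 well left out in turn, Sox9, Sox13 and Sox21 kept an adjusted p under 0.05 in 2, 1 and 1 of 6 fits. No SOX gene was called without OSKA − 4OHT replicate 2 or OSKA + 4OHT replicate 1 or 2, and 1 was called without OSKA − 4OHT replicate 1 or 3. On the opposite strand, Gm4675 covers 17.8% of the Sox21 windows. Sox4, a SOXC factor, had 26.7 ± 3.62 and 16.3 ± 1.59 TPM without passing the test (limma-trend, Benjamini-Hochberg adjusted p = 0.0901). By its mean over the 6 wells it came second to Sox13 among the other SOX genes, but in all 3 OSKA + 4OHT wells Sox11 was above it.

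Klf4 made up 50.2% to 62.7% of the summed TPM of the 17 KLF genes in the OSKA − 4OHT wells and 50.2% to 60.2% in the OSKA + 4OHT wells. None of the 13 KLF genes tested was called (4.23% of all tested genes), and 1 had an unadjusted p under 0.05 (21.3% of all tested genes, limma-trend). Limma without the trend called 0, with 2 under 0.05. Their median log2 fold change was 0.034. Klf3, which encodes a repressor, had 178 TPM in both groups, and Klf6 had 73.6 ± 15.3 and 75.5 ± 9.45 TPM (SD, n = 3 each). The low share in OSKA − 4OHT replicate 1, 50.2%, came with high values of other KLF genes in that well. Klf12, named after its values were seen, was at 60.1 TPM there and at 3.99 to 11.2 TPM in the other 5 wells.

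**Figure D4:**
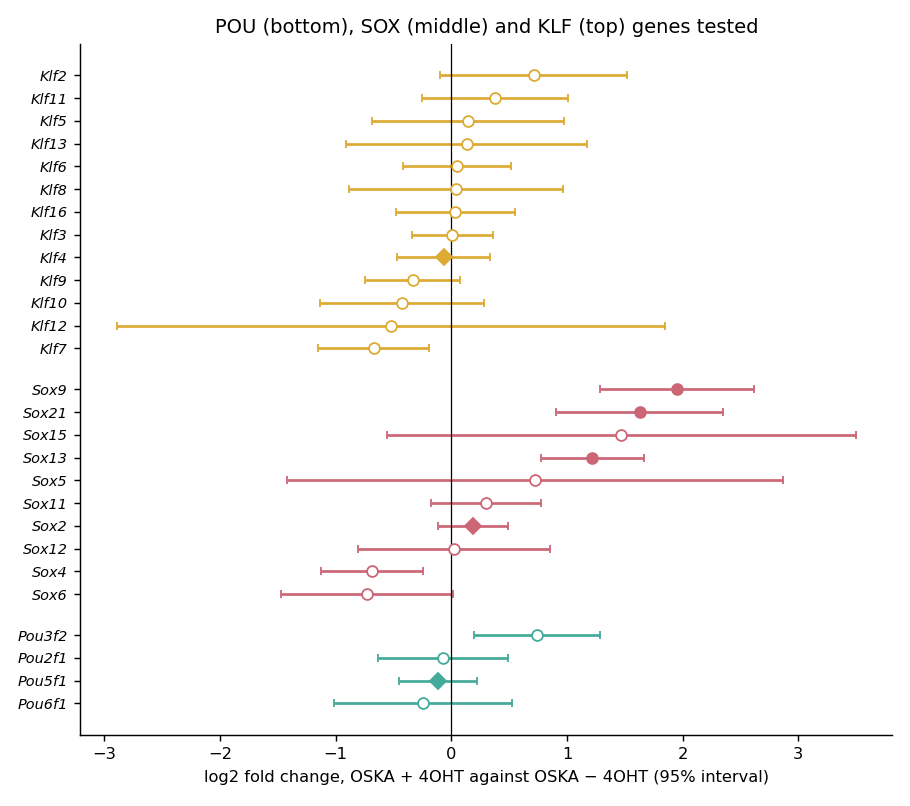
Log2 fold change of the AKT-activated against the nonactivated wells with its 95% interval (horizontal axis, log2 units) for the tested POU, SOX and KLF genes. Diamonds are the transduced factors, filled circles the genes called and open circles the others; Sox9, Sox21 and Sox13 are the 3 called.

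The annotated genes within 100 kb of the endogenous loci, which the vectors do not carry, were also followed. Beside Klf4, all 5 were listed at 0 in every well. Beside Sox2, 8 of 11 were listed at 0 in every well and 3 were tested. Sox2ot, the noncoding RNA gene whose intron holds Sox2 and whose exons do not overlap it, had 0.970, 1.64 and 1.39 TPM without 4OHT and 1.41, 8.05 and 3.44 TPM with 4OHT. The groups overlapped by 1 well on each side, and the log2 fold change of 1.15 (SE 0.606) had a Benjamini-Hochberg adjusted p of 0.343 in limma-trend. The other 2, the small RNA genes RF01953 and Gm27403, had values above 0 in 1 and 2 wells. Beside Pou5f1, 7 of 12 genes passed the filter. Of these 7, Psors1c2, Cdsn, H2-Q6 and H2-Q7 had a mean below 1 TPM without 4OHT and passed only through the AKT-activated wells. They had to be higher there, and no test is given for them. None of the others, Tcf19, Cchcr1 and Gm19553, was called, against 4.23% of all tested genes. The nearest protein-coding gene, Tcf19, a growth-related gene 1.96 kb away on the opposite strand, had 8.16, 9.29 and 9.65 TPM without 4OHT and 15.5, 18.8 and 15.9 TPM with 4OHT. The AKT-activated wells were higher without overlap, as for 18.1% of all tested genes. The log2 fold change of Tcf19, 0.85, missed the threshold (limma-trend, Benjamini-Hochberg adjusted p = 0.0543). Psors1c2, 22.4 kb away, was listed at 0 in all OSKA − 4OHT wells and at 5.19, 0.901 and 1.97 TPM in the OSKA + 4OHT wells. H2-Q7, a class I histocompatibility gene, too was listed at 0 in all OSKA − 4OHT wells and had 4.39, 0.985 and 10.96 TPM in the OSKA + 4OHT wells. Cchcr1 and Gm19553 had adjusted p-values of 0.654 and 0.457 by limma-trend.

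Cdh1, Sall1, Tdgf1 and Epcam, known targets and partners of the factors, rose in the AKT-activated wells. They belong to 26 genes that OCT4, SOX2 and KLF4 are known to control or act with, chosen with earlier results of these data known. Of these, 20 passed the filter, but 9 of the 20 had a mean below 1 TPM without 4OHT and passed only through the AKT-activated wells, so they had to be higher there. Among the 11 whose mean without 4OHT reached 1 TPM, the 4 genes named were called higher and 0 lower, against 2.54% called higher of the 14297 genes with such a mean. In 8 of the 11 the groups did not overlap and the AKT-activated wells were higher, against 17.1% of these genes, and the median log2 fold change was 1.19 against 0.089. The 9 others, Dppa5a and Gdf3 among them, are given as values without a test. Cdh1, which encodes E-cadherin and is a known KLF4 target, rose from 7.50, 6.51 and 9.17 TPM to 35.2, 33.1 and 32.6 TPM (log2 fold change 2.06, SE 0.190, limma-trend, Benjamini-Hochberg adjusted p = 0.00471). Gdf3, a TGF-beta family ligand of pluripotent cells, had 0.556, 0.533 and 0.456 TPM without 4OHT and 11.8, 13.3 and 7.25 TPM with 4OHT. Sall1, a zinc-finger factor, rose from 4.42 ± 0.526 to 15.6 ± 0.965 TPM (SD, n = 3 per group, log2 change 1.71, limma-trend, Benjamini-Hochberg adjusted p = 0.00927). Dppa5a, an RNA-binding protein of pluripotent cells, was listed at 0 in all OSKA − 4OHT wells and had 16.4, 25.7 and 18.5 TPM in the OSKA + 4OHT wells, but 38.6% of its 50-base windows occur in other genes, so its value is uncertain. With 1 well left out in turn, the adjusted p stayed under 0.05 in 6 of 6 fits for Cdh1, in 4 for Sall1, in 2 for Tdgf1 and in 0 for Epcam. With the replicate number as a block, none of these 4 genes was called.

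**Figure D5:**
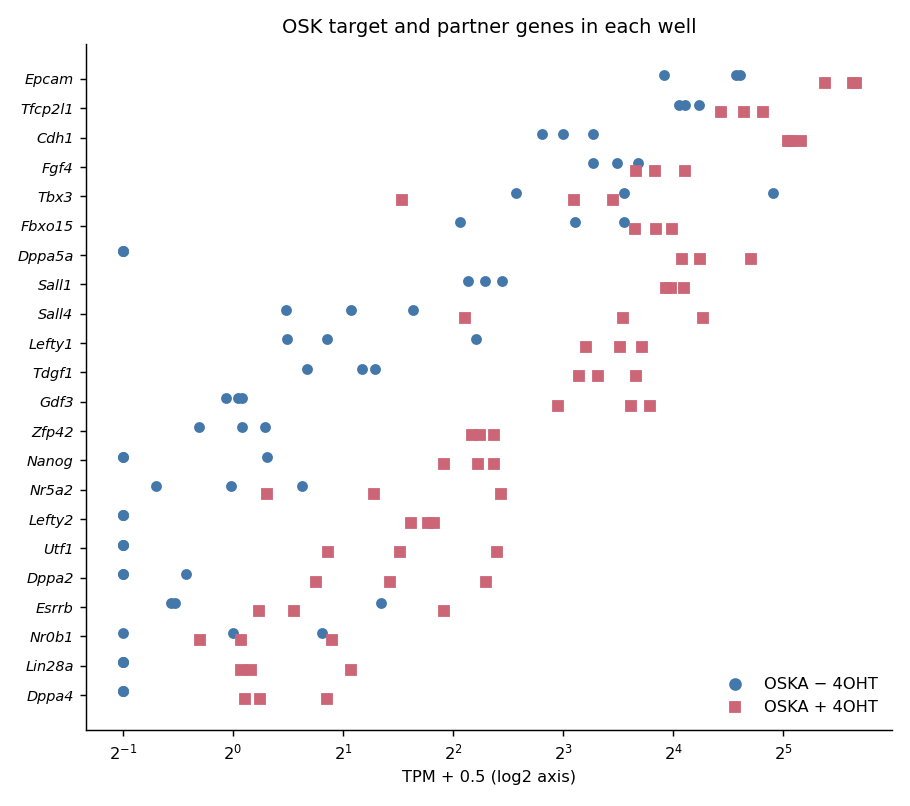
TPM + 0.5 in each well (horizontal log2 axis) of 22 target and partner genes of OCT4, SOX2 and KLF4 with a value above 0 in at least 1 well, ordered by mean. Circles are OSKA − 4OHT and squares OSKA + 4OHT wells; the AKT-activated wells lie to the right for most genes, and Tbx3 lies the other way without passing the test.

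Genes known to take part in silencing retroviral vectors, among them Trim28, Setdb1 and the DNA methyltransferases, were tested as a list. The factors were delivered by such vectors, and whether these genes acted on the vectors in these wells was not tested. Of 22 genes, 21 passed the filter, but Dnmt3b passed only through the AKT-activated wells and had to be higher there. Its p is therefore not read as a result. Of the 20 with a mean of 1 TPM or more without 4OHT, 0 were called by limma-trend, against 4.23% of all tested genes. Among these 20, Dnmt1, Chaf1a and Chaf1b had an unadjusted p under 0.05 (limma-trend), all higher, against 21.3% of all tested genes. Over all 21, limma without the trend gave 0 called and 3 under 0.05. The 20 had a median log2 fold change of 0.35, against 0.089 over all genes with such a mean. In 5 of the 20 the groups did not overlap, all higher, against 17.1%. Trim28, the KAP1 corepressor, had 300.0, 269.8 and 299.8 TPM without 4OHT and 350, 430 and 316 TPM with 4OHT (log2 fold change 0.32, limma-trend, Benjamini-Hochberg adjusted p = 0.261). Dnmt3b, a de novo methyltransferase of pluripotent cells, had 0.337 ± 0.293 and 3.06 ± 1.26 TPM (SD, n = 3 each). Both were named after their values were seen.

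Across the 6 wells, the genes whose log2 level was most like that of a factor were found among 8191 protein-coding genes whose mean reached 10 TPM. This is a description of 6 libraries that share scaling and wells, and high values are common among so many genes. Pou5f1 was closest to Fcgrt, the neonatal Fc receptor chain (Pearson's r = 0.995), the ribosomal protein gene Rpl13 (0.994) and the matrix gene Spon2 (0.993), and 29 genes had an r above 0.95. Sox2 was closest to Scap, the sterol sensor of SREBP (0.994), Mfsd6, a transporter-like gene (0.991), and Nat9 (0.989), with 38 genes above 0.95. Klf4 was closest to Ap2m1, a clathrin adaptor subunit (0.989), the amino acid transporter gene Slc38a7 (0.988) and Afg3l2, a mitochondrial protease (0.983), with 18 genes above 0.95. The factors were less like each other, with r = 0.717 for Pou5f1 and Klf4, 0.303 for Pou5f1 and Sox2 and 0.452 for Sox2 and Klf4. Pou5f1 and Esr1 had r = 0.916, Klf4 and Esr1 0.651, and Sox2 and Esr1 -0.026.

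The labelled cell type was checked with marker genes. The 10 fibroblast markers summed to 8066 to 9673 TPM in the OSKA − 4OHT wells and to 5720 to 7169 TPM in the OSKA + 4OHT wells, none of them at 0 in all wells. The list was not uniform, with 7 of the 10 lower and 3 higher. Fibronectin (Fn1) had 1360 and 723 TPM and Pdgfrb 24.5 and 7.50 TPM, while the collagen gene Col3a1 had 433 and 1023 TPM in the OSKA − 4OHT and OSKA + 4OHT groups (limma-trend, Benjamini-Hochberg adjusted p = 0.0128, 0.0113 and 0.00582). Pdgfrb was called lower and Col3a1 higher, while 1.37% and 2.87% of all tested genes were called lower and higher. With 1 well left out, the adjusted p stayed under 0.05 in 6 of 6 fits for Col3a1, in 3 for Pdgfrb and in 1 for Fn1. Without overlap 5 markers were lower (Col1a1, Col1a2, Pdgfrb, Vim and Fn1) and 3 higher (Col3a1, Thy1 and Dcn), against 10.0% and 18.1% of all tested genes. The 7 macrophage markers summed to 125 to 138 and 79.0 to 89.7 TPM. Most of this difference was in Lyz2, with means of 95.2 and 51.8 TPM, while those of Cd68 were 14.9 and 19.0 TPM and those of Itgam 5.20 and 5.22 TPM. Of the 7, 5 were lower and 2 higher by their log2 fold change. Without overlap 2 were lower (Lyz2 and Csf1r) and 0 higher, against 10.0% and 18.1% of all tested genes. The sums were 171 to 210 and 168 to 197 TPM for 7 neural progenitor markers, 21.4 to 28.9 and 28.1 to 37.6 TPM for 5 endothelial markers, and 8.04 to 32.1 and 31.7 to 37.2 TPM for 5 keratinocyte markers. Their part in the levels of Klf4, which fibroblasts and keratinocytes express, of the SOX genes and of the targets was not tested.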

How the data were processed

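RNA of 6 wells was sequenced by the authors from stranded polyA libraries as 50-base single-end reads. The reads were trimmed with Trim Galore and quantified with Salmon, whose version and annotation release are not given in the sources used here. TPM were deposited for every gene in every well, and TPM keep no sequencing depth, so no counting interval is given. The deposited table also holds 4 columns of the authors' own comparison (a log fold change, a log average level, an F statistic and a p-value), which were not used. GENCODE M21 (GRCm38) gave the symbols and positions, and RefSeq the promoters.

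Differences were tested with limma-trend (limma 3.58.1, R 4.3.3) on log2(TPM + 0.5) over genes whose mean reached 1 TPM, without a replicate block and with Benjamini-Hochberg adjustment over all of them. On this scale the fold changes of low genes are understated. Genes were called when the adjusted p was below 0.05 and the log2 fold change exceeded 1 in size. Single ratios were compared with exact 2-sided permutation tests over wells (Python 3.11.15). The procedure was checked on simulated data in which 200 of 15382 genes were changed. It called 32% of those changed by 1.5 log2 units and 55% of those changed by 3, with 2 false calls. A gene that was not called can thus still differ. The alternatives were other filters, pseudocounts and scalings, no variance trend, a replicate block and leaving out each well.

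The factors and the gene lists were chosen with earlier results of these data known. The genes named are the factors, Akt1 and Esr1, up to 4 called genes per list by adjusted p, the 2 most abundant other members of each family, the tested genes within 100 kb of each locus and Sox2ot, and the 3 genes most like each factor. The values of 1 gene of the target list are not reported here. Others are marked or belong to a count they explain.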

Additional observations from a re-analysis of the deposited data

How the results depend on the processing

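Over 17 settings each, the adjusted p (limma-trend or limma, Benjamini-Hochberg) ranged from 0.338 to 0.967 for Pou5f1, from 0.155 to 0.713 for Sox2 and from 0.560 to 0.991 for Klf4, and no setting brought a factor past the threshold. The log2 fold change of Sox2 was positive in all of them (0.074 to 0.29). With 1 well left out it ranged from -0.21 to 0.011 for Pou5f1, where only the fit without OSKA + 4OHT replicate 3 was positive, and from -0.17 to 0.076 for Klf4, which was at 0.0096 without OSKA − 4OHT replicate 2. The log2 difference in the Pou5f1 to Klf4 ratio ranged from -0.14 to 0.078 and was positive only without OSKA − 4OHT replicate 3, and that of Pou5f1 to Sox2 ranged from -0.39 to -0.23. The cause of these reversals was not tested.

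Of all genes, 651 were called, 199 to 427 with 1 well left out (fewer samples) and 521 to 704 under the other settings without a block. The share of called genes that were higher was 67.7%, with 441 higher and 210 lower. It was 56.5% after trimmed mean scaling (367 and 282), computed without the weights of the original method, and 53.1% after quantile normalization (335 and 296). In the SOX family 0 to 2 genes were called with 1 well left out, and 4 to 7 instead of 9 among the targets and partners. The latter counts say little, since they include genes that passed the filter only through the AKT-activated wells, 3 of the 4 (Dppa5a, Gdf3 and Lefty2) without OSKA + 4OHT replicate 1 or 2. The scaling over nuclear protein-coding genes and the leaving out of wells for family shares were chosen after seeing the data.

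Same-numbered wells of the groups correlated at 0.0235 to 0.0837 in their deviations, all under 0.1, so the numbers were not taken to pair the wells. As a hint from the data, 5 of 6 wells correlated best with their own number. With the replicate number as a block, 47 genes were called (31 higher, 16 lower), with 0 in the SOX family and 1 among the targets and partners. That 1 was Dppa5a, so Cdh1, Sall1, Tdgf1 and Epcam were not called under the block. The adjusted p under the block was 0.679 for Pou5f1, 0.518 for Sox2 and 0.752 for Klf4 (limma-trend, Benjamini-Hochberg). The sign-flip test of paired ratios gave exact p = 0.25, 0.75 and 0.25, with 0.25 the smallest possible.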
